A study of Mus musculus with 12 samples.

Results

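The nuclear genes of respiratory complex I were followed across 4 mouse embryonic fibroblast (MEF) lines. The members are every gene of the count table whose symbol is Nduf followed by a, ab, b, c, s or v and a number, which leaves out the Ndufaf assembly factors. This rule found 37 of the 24453 genes, and all 37 passed the filter on low counts together with 14026 genes in all. The rule used symbols alone, and no measured value. RNA was sequenced from 12 libraries, 3 biological replicates each of TM6, rho0, PKO-1 and PKO-6 MEFs. TM6 is the parental line, made from MEFs of C57BL6/J background that carry a Pnpt1 neo-flox/neo-flox allele and immortalised with SV-40 large T antigen, so all lines, the controls included, share that floxed allele and the viral protein. The rho0 line was grown from a single cell colony of TM6 after 3 weeks in ditercalinium dichloride dihydrochloride at 750 ng/mL, a compound that depletes mitochondrial DNA (mtDNA). PKO-1 and PKO-6 are single-cell clones of TM6 treated with an adenovirus that expresses Cre, which removes exon 2 of Pnpt1, the gene of polynucleotide phosphorylase (PNPase), and uridine (50 µg/mL) was in the medium of every line. The study reported that the PKO clones had also lost their mtDNA and did not respire, so TM6 was the only line here with mtDNA. The study asked how loss of PNPase changes gene expression beside loss of mtDNA by a drug. Each condition is thus 1 line or 2 clones. In fits of the 4 lines, p-values measure the spread between cultures of a line. In fits of 3 groups the clones are pooled as PKO, and the spread behind every p-value also holds the gap between the clones. No fit measures the spread between independent derivations of TM6 or rho0, and for PKO only 2 clones bear on it.

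Complex I is the entry point of electrons from NADH into the respiratory chain of the inner mitochondrial membrane. The N module at the tip of the matrix arm oxidises NADH, the Q module below it hands the electrons through iron-sulfur clusters to ubiquinone, and the proximal and distal P modules of the membrane arm hold the proton pumps. The catalytic core is made jointly by nuclear genes, which supply the redox subunits of the matrix arm, and by mtDNA, which supplies the hydrophobic pump subunits, while the remaining nuclear subunits are accessory proteins that surround this core. The mtDNA-encoded subunits were not analysed here. The 37 members comprised 8 genes of the N module, 6 of the Q module, 9 of the proximal and 10 of the distal P module, Ndufa6 and Ndufa7 of the matrix arm, the acyl carrier protein Ndufab1, and Ndufa4, which was named as a complex I subunit and is now counted with cytochrome c oxidase (complex IV).

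Promoters of called subunits are printed first because they differ in the letters of sites bound by factors known for nuclear respiratory genes. Windows from 250 bases before to 50 bases after the start of transcription came from RefSeq on GRCm38.p6, for 33 of the 37 members and for 32851 windows of 27025 genes in all. Letters for 4 factors were searched on both strands. They were GCGCANGCG for NRF1, CCGGAAG for ETS factors such as GABPA, AAGATGGCG for YY1 and TCAAGGTCA for the estrogen-related receptors. Words of different factors can share letters at their ends, as AAG closes the ETS word and opens the YY1 word. The NRF1 letters stood in 8 of the 33 members (24.2%) and in 7.03% of all genes (6.25% of windows). The YY1 letters stood in 5 members (15.2%) and in 1.64% of all genes (1.40% of windows). The ETS letters stood in 4 members (12.1%) and in 9.93% of all genes (8.86% of windows), and the receptor letters in 0 members and 0.466% of all genes (0.423% of windows). The sequences run 5′ to 3′ from 180 bases before to 20 bases after the start, with matched letters in capitals.
Ndufa8 promoter, chr2:36049319-36049518, minus strand: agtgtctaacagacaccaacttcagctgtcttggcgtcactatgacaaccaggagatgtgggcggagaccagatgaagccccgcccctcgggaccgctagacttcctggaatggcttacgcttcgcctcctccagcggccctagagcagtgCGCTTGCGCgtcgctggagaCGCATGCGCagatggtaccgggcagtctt
Ndufb10 promoter, chr17:24724404-24724603, minus strand: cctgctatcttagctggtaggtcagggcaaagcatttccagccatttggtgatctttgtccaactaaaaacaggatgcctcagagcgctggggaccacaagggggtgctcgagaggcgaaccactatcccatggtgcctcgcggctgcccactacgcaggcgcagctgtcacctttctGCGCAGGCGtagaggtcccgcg
Ndufb7 promoter, chr8:83566578-83566777, plus strand: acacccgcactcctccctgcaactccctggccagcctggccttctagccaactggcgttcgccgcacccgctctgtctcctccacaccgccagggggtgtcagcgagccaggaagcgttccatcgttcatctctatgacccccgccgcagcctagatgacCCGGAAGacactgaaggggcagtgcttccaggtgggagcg
Ndufb11 promoter, chrX:20617600-20617799, minus strand: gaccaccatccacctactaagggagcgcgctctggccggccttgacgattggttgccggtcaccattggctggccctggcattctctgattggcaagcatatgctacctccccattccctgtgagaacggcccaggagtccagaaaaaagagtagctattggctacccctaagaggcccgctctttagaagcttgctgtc
Ndufa1 promoter, chrX:37191219-37191418, minus strand: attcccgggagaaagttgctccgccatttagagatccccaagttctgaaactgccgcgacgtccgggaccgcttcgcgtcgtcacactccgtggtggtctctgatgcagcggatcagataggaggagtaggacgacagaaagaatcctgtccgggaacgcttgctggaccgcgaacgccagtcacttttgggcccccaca
Ndufa7 promoter, chr17:33824392-33824591, plus strand: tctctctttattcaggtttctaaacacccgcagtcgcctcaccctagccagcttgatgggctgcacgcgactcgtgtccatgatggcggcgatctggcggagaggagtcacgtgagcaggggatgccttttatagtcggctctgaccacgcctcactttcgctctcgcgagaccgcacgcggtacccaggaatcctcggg

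Of the printed promoters, Ndufa8 held the NRF1 letters at 2 places and Ndufb10 at 1, and Ndufb7 held the ETS letters. Ndufb11, Ndufa1 and Ndufa7, which are among the members with the largest changes below, held none of the 4 words in the searched window. Over the members, 16 held at least 1 of the 4 words. A match is a run of letters and says nothing of binding.

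Totals were 47164860 to 67991378 counts per library, and the 37 members together took 0.142% to 0.183% of them. The ribosomal transcript Rn45s took 12.2% to 19.6%. Pnpt1 counts include the exons that Cre leaves in place, so they check the remaining transcript and not the protein. Its normalised counts (counts scaled to a common library size by TMM) were 2832 to 3319 in TM6, 5051 to 5510 in rho0, 1191 to 1276 in PKO-1 and 1720 to 2214 in PKO-6. Against TM6 the log2 fold change was -0.98 in PKO (adjusted p = 0.000836) and 0.75 in rho0 (adjusted p = 0.0116, not called). All adjusted p-values are from edgeR's quasi-likelihood test with Benjamini-Hochberg adjustment over the 14026 genes, and a gene was called differentially expressed (DEG) where the adjusted p was below 0.01 and the log2 fold change exceeded 0.5 in size. Markers of fibroblasts summed to 4275 to 4533 TPM (transcript counts per length, scaled to a common library total) in TM6 and 4137 to 4318 in PKO-1, but to 3196 to 3268 in rho0 and 2375 to 2588 in PKO-6, with Lum at 0 in rho0 and Thy1 at 0 in PKO-6. The lists of epithelial, blood, endothelial, muscle and neuronal markers each summed to at most 9.80 TPM in any library. In such bulk RNA, fewer cells of a kind and less RNA per cell cannot be told apart.

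By the median of the members, the rho0 replicate 1 library stood apart from the other replicates of its line, and the PKO-6 libraries were spread out. The median member differed from the TM6 mean by a log2 value of 0.03 in rho0 replicate 1, against -0.30 and -0.25 in rho0 replicates 2 and 3. In PKO-6 this value was -0.11, 0.03 and -0.23 in replicates 1, 2 and 3. The members of TM6 and PKO-1 varied less, from -0.04 to 0.03 and from -0.02 to 0.14. The libraries also differed in Rn45s, which was highest in rho0 replicate 1 (19.6%) and lowest in PKO-6 replicate 3 (12.2%). The part of this in the members' values was not tested.

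**Figure D1:**
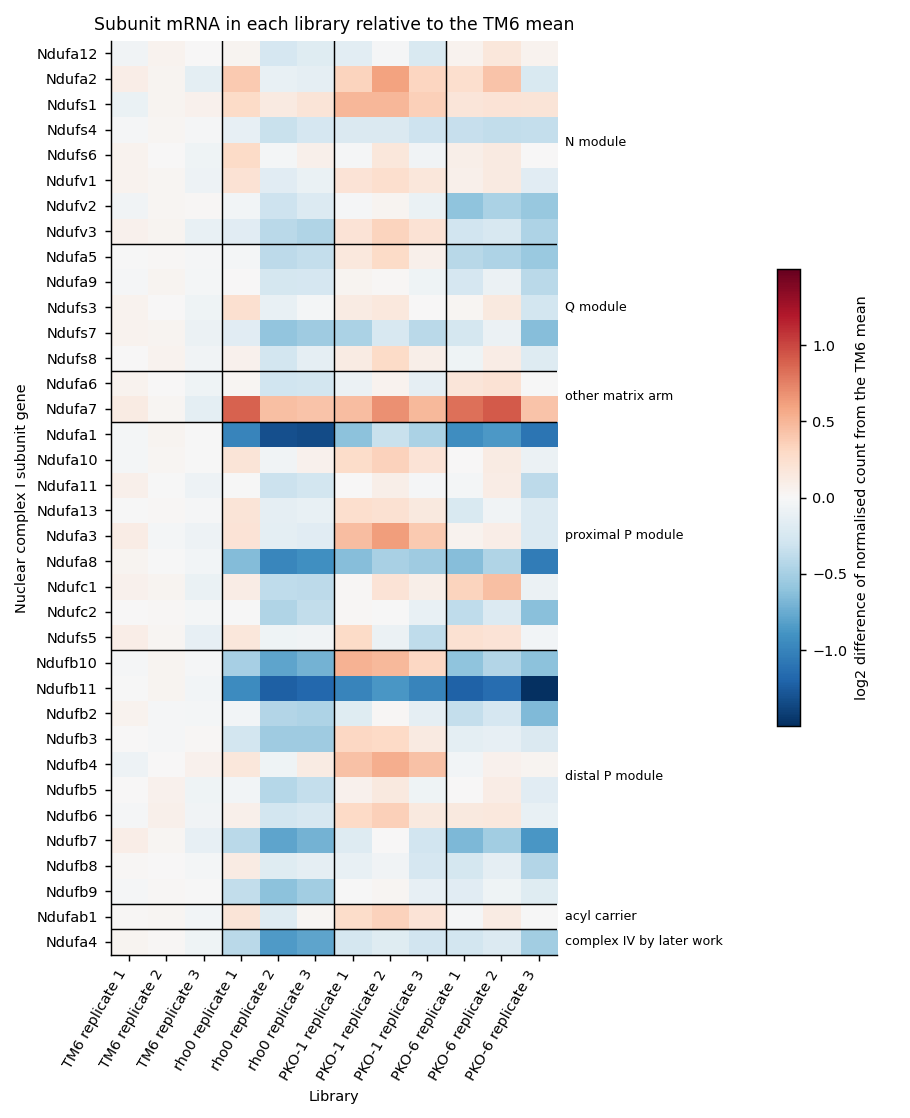
Log2 difference of subunit genes (vertical axis, grouped by module) from the TM6 mean in each of the 12 libraries (horizontal axis). Ndufb11 and Ndufa1 were low in all rho0, PKO-1 and PKO-6 libraries, Ndufa7 was high in all of them, and rho0 replicate 1 was higher than rho0 replicates 2 and 3 over most members.

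Transcript levels per length differed widely between subunits within a line. In TM6 the mean level ran from 24.6 TPM (Ndufa11) to 480.2 TPM (Ndufa4), a 19.5-fold range around a median of 125 TPM. Ndufa4 was followed by Ndufa12, an accessory subunit of the N module, at 354 TPM, by Ndufb8 at 257 TPM, by Ndufb9 at 241 TPM and by Ndufb4 at 230.4 TPM. Of the 36 pairs of neighbours in this order, 22 overlapped in their replicate values in TM6, 29 in rho0, 21 in PKO-1 and 26 in PKO-6. In PKO-1 Ndufa4 was also first without overlap, at 388 TPM. In PKO-6 Ndufa4 (363 TPM) and Ndufa12 (361 TPM) overlapped in their replicates, and in rho0 so did Ndufa12 (317 TPM), Ndufa7 (296 TPM) and Ndufa4 (294 TPM), so that neither line had a clear first. The core subunits were not the most abundant. In TM6 Ndufs7 (182 TPM) and Ndufs8 (163 TPM) lay above the median member. Ndufv1 (98.5 TPM), Ndufv2 (80.7 TPM), Ndufs3 (80.3 TPM) and Ndufs1, the largest core subunit (54.4 TPM), lay below it. The median member transcript measured 659 bases against 2102 bases over all genes, and 35 of the 37 were shorter than the median gene, where TPM depends most on the fragment length assumed.

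**Figure D2:**
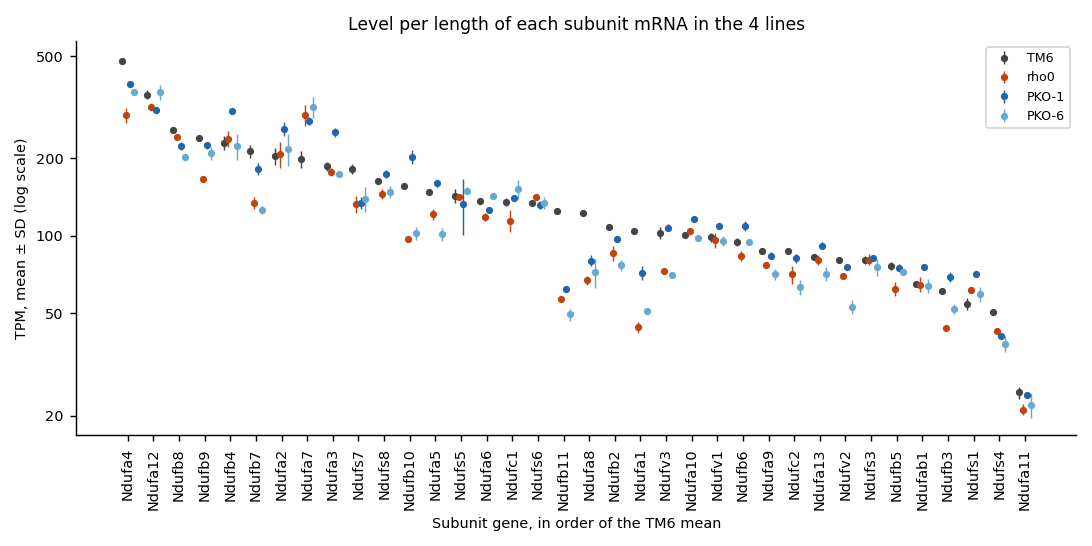
Transcript level of subunit genes in TPM (log axis, mean ± SD of 3 replicates) in the 4 lines, with the subunits ordered by their TM6 level. Levels span 24.6 to 480.2 TPM in TM6, and for most subunits the lines lie closer together than the range between subunits.

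Summed over the 37 members, the level was 5310 ± 76.2 TPM in TM6 (SD, n = 3), 4500 ± 167 TPM in rho0, 5293 ± 86.8 TPM in PKO-1 and 4641 ± 84.0 TPM in PKO-6. TM6 and PKO-1 overlapped, and every rho0 and PKO-6 library lay below every TM6 and PKO-1 library. With Rn45s left out of the scaling the sums were 5573 ± 110 TPM, 4742 ± 204 TPM, 5524 ± 65.2 TPM and 4869 ± 131 TPM, in the same order of lines. Member by member, the ratio of the highest to the lowest line mean of normalised counts had a median of 1.33, and it was under 1.5 in 27 members. It reached 2 in 3 members only, Ndufb11 (2.42), Ndufa1 (2.31) and Ndufb10 (2.14). PKO-1 had the highest mean in 19 members and TM6 in 12, and the lowest mean was in rho0 for 16 and in PKO-6 for 12.

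The first comparison asked how the drug-made loss of mtDNA changed these genes. In rho0 against TM6, 5 of the 37 members (13.5%) were called, where 29.3% of all tested genes were. Ndufa7 rose (13.7% of all genes were called higher), and Ndufa1, Ndufb11, Ndufa8 and Ndufa4 fell (15.6% of all genes were called lower). The median member stood at a log2 fold change of -0.17, with 28 members below 0, beside a median of 0.02 over all tested genes. Without rho0 replicate 1 that median was -0.28, with 33 members below 0. The groups did not overlap for 2 members on the higher and 13 on the lower side, against 35.8% and 37.0% of all genes. In the fit of these groups the PKO clones were 1 group, and with only TM6 and rho0 in the fit 8 members were called.

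Both called subunits encoded on the X chromosome were low in every line other than TM6. Ndufb11 (chrX:20615326-20617564, minus strand, 3 exons) encodes a distal P module subunit. Its normalised counts were 2762, 2843 and 2694 in TM6, 1438, 1182 and 1226 in rho0, 1395, 1509 and 1397 in PKO-1, and 1190, 1259 and 979 in PKO-6. The lowest TM6 library lay far above the highest library of any other line, and PKO-1 and rho0 overlapped. The log2 fold change against TM6 was -1.11 ± 0.14 (SE) in rho0 (adjusted p = 6.52e-05), -0.95 ± 0.089 in PKO-1 (adjusted p = 5.43e-07) and -1.28 ± 0.090 in PKO-6 (adjusted p = 1.83e-08). Ndufa1 (chrX:37187589-37191238, minus strand, 3 exons) encodes a small proximal P module subunit that is needed for assembly of the complex. Its normalised counts were 1042, 1087 and 1054 in TM6, 536, 424 and 419 in rho0, 690.4, 840.3 and 762 in PKO-1, and 558, 587 and 495 in PKO-6. TM6 was again highest and did not overlap with any line, PKO-1 was intermediate, and rho0 and PKO-6 were lowest. The log2 fold change against TM6 was -1.21 ± 0.19 in rho0 (adjusted p = 0.00027), -0.47 ± 0.10 in PKO-1 (adjusted p = 0.0011, not called for its size) and -0.96 ± 0.10 in PKO-6 (adjusted p = 1.67e-06).

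The X chromosome as a whole was lower in these lines. Over its 459 tested genes the median log2 fold change against TM6 was -0.75 in rho0, -0.74 in PKO-1 and -0.87 in PKO-6, and 51.4%, 63.2% and 63.8% of its genes were called lower. When the median of its chromosome was taken from each gene, Ndufb11 stood at -0.34 in rho0, -0.22 in PKO-1 and -0.39 in PKO-6, and Ndufa1 at -0.43, 0.25 and -0.07. Neither was then called in any of these lines. Dose or activity of the X chromosome was not measured here, and its part in these values was not tested.

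**Figure D3:**
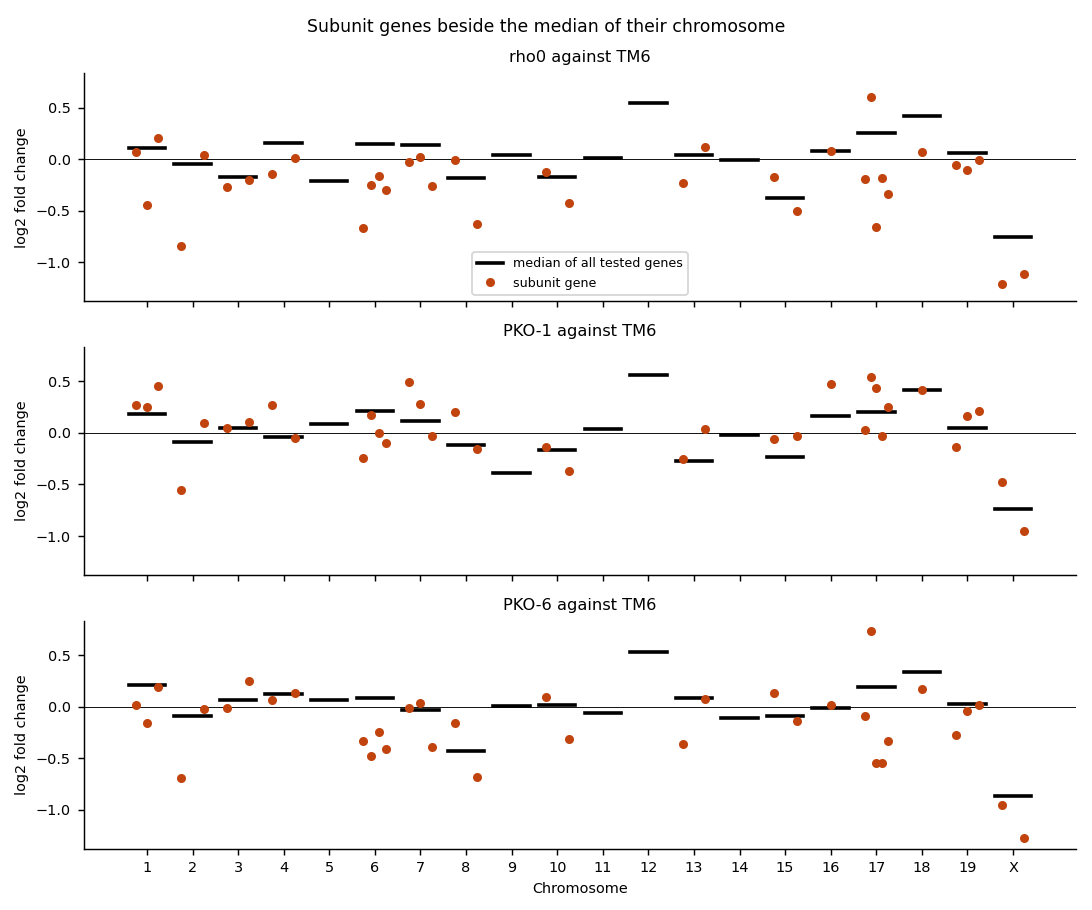
Log2 fold change of the members against TM6 (points) beside the median of all tested genes of the same chromosome (lines), in 3 panels for rho0, PKO-1 and PKO-6. The X chromosome has the lowest median in each panel, and Ndufa1 and Ndufb11 lie within 0.5 of it, while Ndufa8 lies below its chromosome's median in all panels.

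Ndufa8, Ndufa4 and Ndufa7 changed on chromosomes with smaller shifts. Ndufa8 (chr2:36036334-36049292, minus strand, 4 exons) encodes a membrane arm subunit on the side of the intermembrane space. Its normalised counts were 2313, 2237 and 2181 in TM6, 1434, 1138 and 1190 in rho0, 1439, 1606 and 1550 in PKO-1, and 1439, 1646 and 1084 in PKO-6. All TM6 libraries were higher than all others, and PKO-6 overlapped with both rho0 and PKO-1. The log2 fold change was -0.84 ± 0.14 in rho0 (adjusted p = 0.000484), -0.55 ± 0.12 in PKO-1 (adjusted p = 0.00122) and -0.69 ± 0.12 in PKO-6 (adjusted p = 0.000158). With the median of its chromosome removed the call was lost in PKO-1 (-0.47) and kept in rho0 (-0.78) and PKO-6 (-0.59). Ndufa4 (chr6:11900373-11907446, minus strand) had normalised counts of 5001, 4940 and 4677 in TM6, 3677, 2710 and 2825 in rho0, 4044, 4297 and 3981 in PKO-1, and 4010, 4242 and 3390 in PKO-6. TM6 did not overlap with the other lines and rho0 had the lowest libraries. It fell in rho0 by 0.67 ± 0.12 on the log2 scale (adjusted p = 0.000643), and stood at -0.25 in PKO-1 (adjusted p = 0.0501) and -0.33 in PKO-6 (adjusted p = 0.0113).

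Ndufa7, an accessory subunit of the matrix arm, was the only member called higher in any line against TM6. The gene (chr17:33824572-33838316, plus strand) had normalised counts of 2478, 2325 and 2070 in TM6, 4225, 3135 and 3071 in rho0, 3151, 3659 and 3199 in PKO-1, and 4059, 4311 and 3067 in PKO-6. All libraries of the other lines were higher than all TM6 libraries. The log2 fold change was 0.60 ± 0.16 in rho0 (adjusted p = 0.00795), 0.54 ± 0.14 in PKO-1 (adjusted p = 0.0032) and 0.73 ± 0.14 in PKO-6 (adjusted p = 0.00026). The call in rho0 was lost when any single TM6 or rho0 library, or PKO-1 replicate 2, was left out, with values of 0.42 to 0.66. That in PKO-1 was lost without TM6 replicate 3 (0.47) or PKO-1 replicate 2 (0.47). Chromosome 17 had medians of 0.25, 0.20 and 0.19 in rho0, PKO-1 and PKO-6, and with them removed Ndufa7 stood at 0.42, 0.32 and 0.52 and was called only in PKO-6. The coding transcript held 78.0% ± 1.74 of the gene's TPM in TM6, 90.4% ± 1.62 in rho0, 88.5% ± 0.278 in PKO-1 and 90.5% ± 0.790 in PKO-6. A non-coding transcript of 3 exons held 13.9% in TM6 and 5.72%, 7.04% and 5.90% in the other lines. Shares are RSEM's estimates from reads that the transcripts partly have in common.

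**Figure D4:**
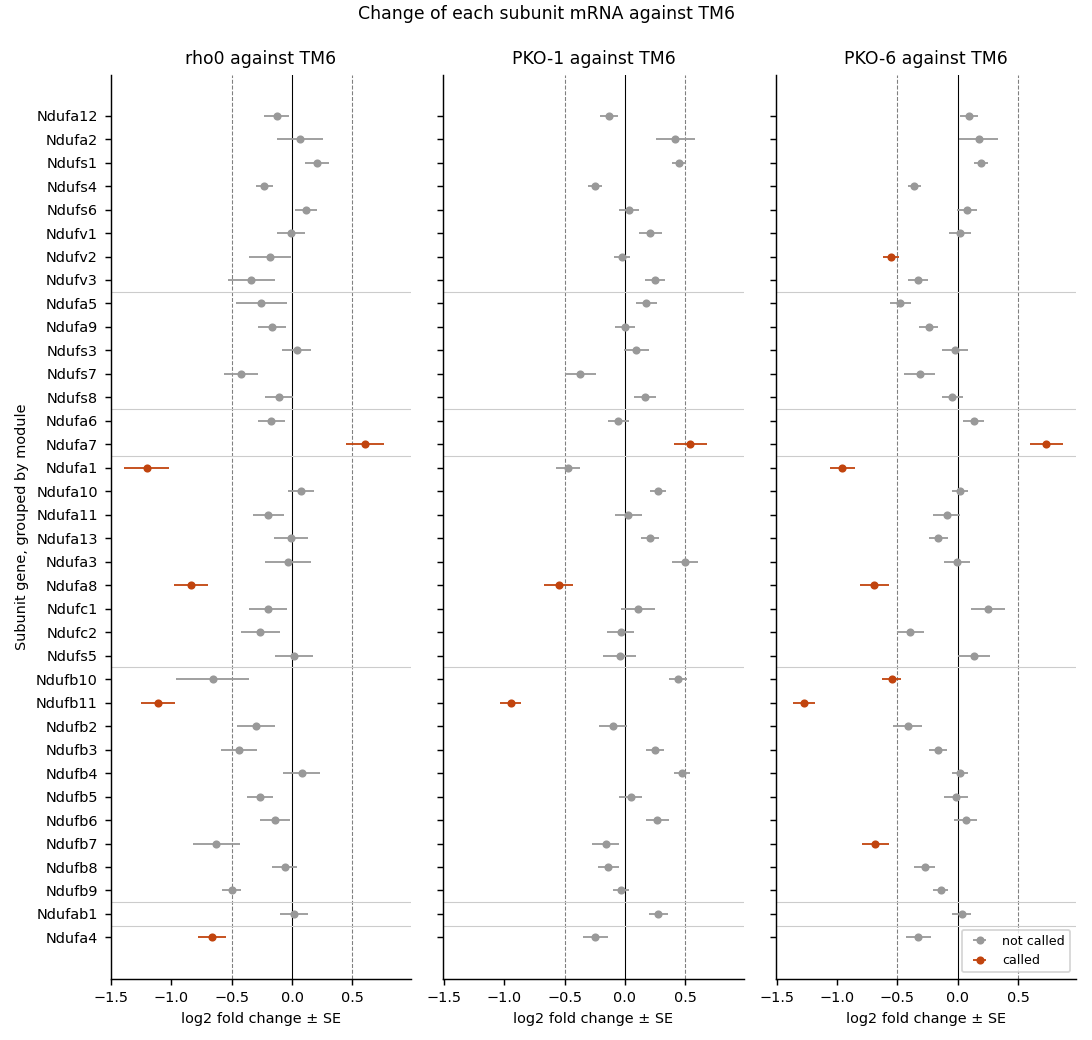
Log2 fold change against TM6 (horizontal axis, ± SE) of subunit genes in 3 panels for rho0, PKO-1 and PKO-6, with called members in orange and dashed lines at the threshold of 0.5 either side of 0. Ndufa7 is the one called member to the right, and Ndufa8 and Ndufb11 are called to the left in all panels.

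By module, the members of the membrane arm lay lower in rho0 than those of the matrix arm. The median log2 fold change against TM6 was -0.37 over the distal P module, with 9 of its 10 genes below 0, -0.20 over the proximal P module, -0.14 over the Q module and -0.07 over the N module. The difference between modules was not tested. Ndufb9, a distal P module subunit, lay just under the fold threshold at -0.50 ± 0.078 (adjusted p = 0.000301, not called), and was called under 11 of 22 alternatives. Ndufb10 and Ndufb7, subunits on the side of the intermembrane space, stood at -0.66 ± 0.30 (adjusted p = 0.0904) and -0.63 ± 0.20 (adjusted p = 0.0199). Both were called in rho0 when the 4 lines were fitted separately, at -0.66 (adjusted p = 4.74e-06) and -0.63 (adjusted p = 0.000192), a fit in which the clones no longer form 1 group.

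The second comparison asked how the 6 PKO libraries differed from TM6, and it shares the TM6 libraries with the first. Of the 37 members 4 (10.8%) were called, where 25.7% of all genes were. Ndufa7 rose by 0.64 ± 0.14 on the log2 scale (adjusted p = 0.00271; 13.5% of all genes were called higher). Ndufb11 fell by 1.10 ± 0.12 (adjusted p = 1.48e-05), Ndufa1 by 0.70 ± 0.15 (adjusted p = 0.00305) and Ndufa8 by 0.62 ± 0.12 (adjusted p = 0.00114), and 12.2% of all genes were called lower. Without TM6 replicate 2 or 3 the count was 2, since Ndufa1 (-0.68 and -0.70) and Ndufa7 (0.65 and 0.57) then missed the adjusted p. With chromosome medians removed 1 member stayed called, Ndufa8 (-0.53), and Ndufa1 stood at 0.10, above 0. The median member was at 0.02 beside 0.03 over all genes, and it lay between -0.02 and 0.05 when single libraries were left out. On the adjusted p alone 6 members passed, where 34.4% of all genes did. The PKO group did not overlap with TM6 for 2 members on the higher and 7 on the lower side, against 24.3% and 23.4% of all genes.

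Within the PKO group the clones differed, and each was also compared with TM6 in a fit of 4 lines. PKO-1 had 3 called members (8.11%, where 34.3% of all genes were), Ndufa7, Ndufa8 and Ndufb11, and 5 without TM6 replicate 1 or PKO-1 replicate 3. Its libraries did not overlap with TM6 for 15 members on the higher and 7 on the lower side, against 36.7% and 35.0% of all genes. PKO-6 had 7 (18.9%, where 41.3% of all genes were), namely the same 3 genes together with Ndufa1, Ndufb7, Ndufb10 and Ndufv2, all 4 lower. Its libraries did not overlap with TM6 for 3 members on the higher and 18 on the lower side, against 36.8% and 35.1% of all genes. The median member stood at 0.05 in PKO-1 and at -0.10 in PKO-6, beside 0.00086 and 0.01 over all genes. On the adjusted p alone 12 members passed in each clone, where 54.3% of all genes did in PKO-1 and 61.0% in PKO-6. Without PKO-1 replicate 2 the first was 0.00043, and without PKO-6 replicate 3 or replicate 2 the second was -0.04 or -0.21.

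Tested directly against each other, the clones differed in 6 members (16.2%, where 29.1% of all genes were called), all higher in PKO-1, while 11.5% of all genes were called higher in PKO-1 and 17.6% lower. Their libraries did not overlap for 19 members higher in PKO-1 and 1 lower, against 33.0% and 33.5% of all genes. The median member was 0.21 higher in PKO-1 on the log2 scale, with 30 of 37 above 0, beside -0.01 over all genes. Without PKO-6 replicate 3 it was 0.12 and without PKO-6 replicate 2 it was 0.28. All 10 distal P module genes were above 0, with a median of 0.32, and the medians of the proximal P, N and Q modules were 0.25, 0.22 and 0.19.

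Ndufb10 (chr17:24722067-24724388, minus strand), a distal P module subunit, differed most between the clones. Its normalised counts were 2289, 2383 and 2305 in TM6, 1646, 1350 and 1426 in rho0, 3334, 3246 and 2882 in PKO-1, and 1526, 1721 and 1522 in PKO-6. PKO-1 lay above TM6 and PKO-6 below it without overlap, and PKO-6 overlapped with rho0. The log2 fold change against TM6 was 0.44 ± 0.077 in PKO-1 (adjusted p = 0.000198, not called for its size) and -0.55 ± 0.078 in PKO-6 (adjusted p = 2.41e-05), and the clones differed by 0.99 ± 0.078 (adjusted p = 1.21e-07). Over the PKO group as a whole this gene stood at 0.03 ± 0.26 (adjusted p = 0.940). Ndufb7 (chr8:83566758-83571623, plus strand), of the same module, had 2611, 2491 and 2250 in TM6, 1853, 1409 and 1495 in rho0, 2136, 2446 and 2000 in PKO-1, and 1539, 1706 and 1336 in PKO-6. PKO-6 lay below TM6 and PKO-1 without overlap, and PKO-1 overlapped with TM6. Ndufb7 fell in PKO-6 by 0.68 ± 0.11 (adjusted p = 8.74e-05), and the clones differed by 0.52 ± 0.11 (adjusted p = 0.00112). Chromosome 8 had a median of -0.43 in PKO-6 with 42.2% of its genes called lower, and with chromosome medians removed Ndufb7 stood at -0.25 in PKO-6 and 0.20 between the clones, neither called.

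In the matrix arm, Ndufv2, Ndufv3 and Ndufa5 were called between the clones. Ndufv2 (chr17:66078795-66101559, minus strand), a core subunit of the N module that carries an iron-sulfur cluster, had normalised counts of 3494, 3693 and 3651 in TM6, 3507, 2906 and 3133 in rho0, 3562, 3705 and 3374 in PKO-1, and 2377, 2591 and 2433 in PKO-6. PKO-6 was lower than every library of every other line, and TM6 and PKO-1 overlapped. It fell in PKO-6 against TM6 by 0.55 ± 0.066 (adjusted p = 4.9e-06), and was 0.52 ± 0.067 higher in PKO-1 than in PKO-6 (adjusted p = 1.23e-05). Ndufv3 (chr17:31520115-31531325, plus strand), an accessory subunit of the N module with a short and a long form, had 1535, 1513 and 1360 in TM6, 1301, 1111 and 1078 in rho0, 1690, 1848 and 1704 in PKO-1, and 1200, 1238 and 1065 in PKO-6. PKO-1 lay above all other lines, and rho0 and PKO-6 lay below TM6. The clones differed by 0.58 ± 0.082 (adjusted p = 3.26e-05). Ndufa5 (chr6:24518664-24527687, minus strand), of the Q module, had 1759, 1786 and 1745 in TM6, 1725, 1339 and 1371 in rho0, 1959, 2157 and 1856 in PKO-1, and 1324, 1276 and 1200 in PKO-6. PKO-1 was above and PKO-6 below TM6 without overlap. The log2 fold change of Ndufa5 against TM6 was 0.18 in PKO-1 (adjusted p = 0.0926) and -0.48 in PKO-6 (adjusted p = 0.000243), neither called. The clones differed by 0.65 ± 0.088 (adjusted p = 2.12e-05).

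Ndufa3 (chr7:3617373-3620161, plus strand), a proximal P module subunit, was the remaining member called between the clones. It had normalised counts of 1099, 997 and 970.2 in TM6, 1175, 919 and 909 in rho0, 1412, 1579 and 1342 in PKO-1, and 1061, 1096 and 888 in PKO-6. PKO-1 lay above all other lines, which overlapped among themselves. The clones differed by 0.51 ± 0.11 (adjusted p = 0.00101). Without PKO-1 replicate 2 only 3 members stayed called between the clones, as Ndufa3 (0.44), Ndufb7 (0.44) and Ndufv2 (0.49) then fell under the fold threshold. With chromosome medians removed Ndufa3 was at 0.41 and not called. Ndufa3 (0.42) and Ndufb7 (0.44) were also lost without PKO-6 replicate 3, and Ndufv2 (0.50) without PKO-6 replicate 1. Fibroblast markers differed between these clones as well, with 7 of 9 tested called higher in PKO-1 and 0 lower, and their part in the members' difference was not tested.

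**Figure D5:**
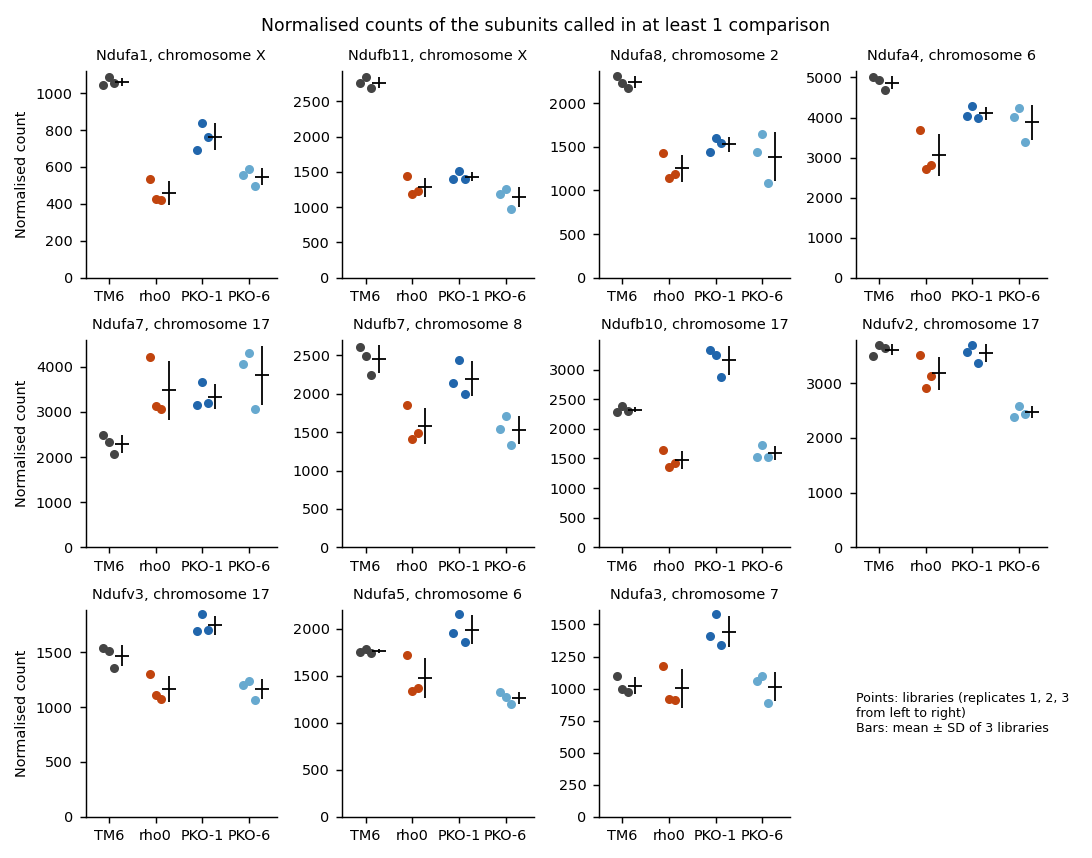
Normalised counts (vertical axis) of the 11 subunits called in at least 1 comparison, per library (points) with mean ± SD for each line of 3 replicates. TM6 lies above the other lines for Ndufa1, Ndufb11, Ndufa8 and Ndufa4 and below them for Ndufa7, and PKO-1 lies above PKO-6 without overlap for Ndufb10, Ndufv3, Ndufv2, Ndufa5, Ndufa3 and Ndufb7.

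The third comparison set PKO against rho0. The quasi-likelihood test of edgeR called 0 members, where 10.7% of all genes were called (6.33% higher and 4.36% lower), with 9 members at an unadjusted p below 0.05, all higher in PKO, and DESeq2 called 0. The median member was 0.14 higher in PKO on the log2 scale, with 32 of 37 above 0, beside 0.02 over all genes. That median was 0.22 without rho0 replicate 1, 0.06 without rho0 replicate 2, and 1 member was called without rho0 replicate 1 or without PKO-6 replicate 3. On the adjusted p alone 1 member passed, Ndufb9, at 0.41 (adjusted p = 0.00109), where 16.9% of all genes did. The groups did not overlap for 2 members on the higher and 0 on the lower side, against 17.2% and 14.9% of all genes. Ndufa1 stood at 0.51 (adjusted p = 0.0321) and Ndufb10 at 0.69, and the clones lay on opposite sides of TM6 for the latter.

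The 7 nuclear core subunits, which carry the flavin and iron-sulfur clusters or shape the ubiquinone site, stood between -0.55 and 0.45 on the log2 scale against TM6 in each line. Under edgeR 0 of them were called in rho0 and 0 in PKO-1 against TM6, where 1 and 3 had an unadjusted p below 0.05 and DESeq2 called 0, and Ndufv2 was the one called in PKO-6, beside 29.3%, 34.3% and 41.3% of all genes called in rho0, PKO-1 and PKO-6. Ndufs1, which holds iron-sulfur clusters of the N module, had normalised counts of 4276, 4696 and 4764 in TM6, 5574, 5027 and 5243 in rho0, 6464, 6447 and 5872 in PKO-1, and 5165, 5269 and 5232 in PKO-6. All libraries of the other lines lay above TM6, and PKO-1 was highest. Its log2 fold change was 0.45 ± 0.058 in PKO-1 (adjusted p = 1.25e-05), 0.19 ± 0.058 in PKO-6 (adjusted p = 0.0101) and 0.21 ± 0.10 in rho0 (adjusted p = 0.109), each under the fold threshold. Ndufs7, which helps form the ubiquinone site, had 3567, 3542 and 3238 in TM6, 3052, 2285 and 2376 in rho0, 2486, 2922 and 2599 in PKO-1, and 2866, 3232 and 2221 in PKO-6. TM6 was highest without overlap, at log2 fold changes of -0.42 in rho0 (adjusted p = 0.0254), -0.37 in PKO-1 (adjusted p = 0.021) and -0.31 in PKO-6 (adjusted p = 0.0399). Ndufv1, which binds the flavin that accepts electrons from NADH, stood at -0.01 in rho0, 0.21 in PKO-1 and 0.02 in PKO-6. Ndufs3 and the cluster-bearing Ndufs8 lay between -0.11 and 0.17 in these lines.

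The accessory subunits not named so far were not called in any comparison. A call needs both thresholds, and some of these subunits passed the adjusted p or the fold threshold alone. Over all comparisons 11 members were called at least once and 26 in none, and Ndufa7, Ndufa8 and Ndufb11 were called in each of rho0, PKO-1 and PKO-6 against the same TM6 libraries. Ndufs6, an N module subunit, was the next highest in rho0 after Ndufa7 and Ndufs1, at a log2 fold change of 0.12, and Ndufa2, also of the N module, was the next highest in PKO, at 0.30 (adjusted p = 0.154). Ndufs4, an N module subunit known from Leigh syndrome, had means of 2263 normalised counts in TM6 and 1765 in PKO-6. Its log2 fold change against TM6 was -0.36 in PKO-6 (adjusted p = 5.6e-05), -0.25 in PKO-1 (adjusted p = 0.00144) and -0.23 in rho0 (adjusted p = 0.0191). Each was under the fold threshold. Ndufs5 shares 484 of its 509 exonic bases with BC002163 on the same strand, so its counts are uncertain. On opposite strands Ndufa13 shares 375 of 1249 bases with Tssk6, Ndufs1 248 of 2927 with Ino80dos, Ndufa2 60 of 602 with Tmco6, Ndufb11 62 of 853 with Rbm10 and Ndufa1 17 of 493 with Rnf113a1, and since use of strand in the counting is not stated, reads of these partners may be included.

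Genes that act with complex I were listed by hand for comparison. Of 15 tested assembly factors, which build the complex, 1 rose and 1 fell in rho0, Nubpl (1.60 ± 0.18, adjusted p = 2.41e-05), which delivers iron-sulfur clusters to complex I, and Ecsit (-0.72 ± 0.0997, adjusted p = 0.000126). In PKO Nubpl (1.38, adjusted p = 2.94e-05) and Timmdc1 (0.59, adjusted p = 1.81e-05) rose and Ecsit (-0.90, adjusted p = 6.03e-06) fell. Of 41 tested nuclear subunits of complexes II to V, 13 fell and 1 rose in rho0 (34.1%, beside 29.3% of all genes and 13.5% of the complex I members), with a median of -0.35. Uqcrh of complex III (-1.27) and Cox7b of complex IV, which lies on the X chromosome (-1.40), were among the lower genes. In PKO 5 fell and 1 rose (14.6%), with a median of -0.09. Of 10 regulators of mitochondrial gene expression, 2 were higher in rho0, Myc (0.97) and Pprc1 (0.55), where 13.7% of all genes were called higher. A further list of 4 was higher in PKO, Ppargc1a (2.41), Ppargc1b (1.47), Myc (0.62) and Yy1 (0.61), beside 13.5% of all genes. Of the regulators 0 were lower in either. The clones differed in these regulators. Ppargc1a stood at 1.27 in PKO-1 and 3.04 in PKO-6 and Ppargc1b at 0.91 and 1.87, both differences called. Myc was not called in PKO-1 (0.46) and Yy1 not in PKO-6 (0.36). Normalised counts of Ppargc1a were low, from 8.65 to 19.1 in TM6, 6.7 to 7.76 in rho0, 21.4 to 40.3 in PKO-1 and 96.6 to 110.5 in PKO-6. Of 13 genes of iron-sulfur cluster assembly, 6 were higher in rho0, among them Hspa9 (1.602) and Hscb (1.16), and 3 were higher in PKO. Of 77 tested genes of the mitochondrial ribosome, 6 were higher and 12 lower in rho0 and 5 higher and 4 lower in PKO. Nubpl and Yy1 lie on chromosome 12, where the median tested gene stood at 0.55 in rho0 and 0.56 in PKO. Hspa9 and Ppargc1b lie on chromosome 18, with medians of 0.42 and 0.39. Myc lies on chromosome 15, with medians of -0.38 and -0.14. The part of these chromosome medians in the values of the listed genes was not tested.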

How the data were processed

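RNA was measured in 12 libraries, 3 biological replicates of each of 4 lines. The authors deposited expected counts, which are estimates without normalization from RSEM 1.2.25 and bowtie2 on mm10 (GRCm38) RefSeq transcripts, after merging technical duplicate libraries, and use of strand in this counting is not given in the sources used here. The authors also deposited TPM, FPKM and the percent of each gene's expression per transcript in each library, in columns told apart by their values, of which TPM and the percent were used for levels and transcript shares.

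Expected counts of the gene table were rounded. Genes with low counts were removed by filterByExpr (minimum count 10, 14026 genes kept) and libraries were scaled by TMM in edgeR 4.0.16 under R 4.3.3. Its quasi-likelihood test, with Benjamini-Hochberg adjustment, compared 3 groups (TM6, rho0 and PKO), or 4 lines where a clone is named. A call needs an adjusted p below 0.01 together with a log2 fold change of more than 0.5 in size. SE is the log2 fold change divided by the square root of F. Totals of 47164860 to 67991378 counts limit precision less than the spread between libraries of a group. The biological coefficient of variation was 0.248 with 3 groups, where it holds the gap between the PKO clones, and 0.0837 with 4 lines. No libraries were duplicates of each other. Scripts were tested on simulated counts.

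The members and gene lists were chosen with earlier results of these data known. Members named are those called in any comparison, the 7 core subunits, the 3 highest and 3 lowest in rho0 and in PKO against TM6, and Ndufa1, Ndufb11 and Ndufa4. Pnpt1 was given as a check of the labels. Of other lists at most 4 called genes with the largest changes were named. Ndufb9, Ndufs4 and overlapping genes were added after their values were seen. The values of 1 core subunit and of 1 gene of the other lists are not reported here by gene. Alternatives were other size factors, no filter on low counts, DESeq2 1.42.0's Wald test, other thresholds, fits of other groups, removal of a length trend or of chromosome medians, a replicate block, and leaving out each library.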

Additional observations from a re-analysis of the deposited data

Results flagged for a closer look

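Effects against TM6 differed between the PKO clones, by the direct test of PKO-1 against PKO-6, in 6 subunits. The log2 difference was 0.99 for Ndufb10 (adjusted p = 1.21e-07), 0.65 for Ndufa5 (adjusted p = 2.12e-05), 0.58 for Ndufv3 (adjusted p = 3.26e-05), 0.52 for Ndufv2 (adjusted p = 1.23e-05), 0.52 for Ndufb7 (adjusted p = 0.00112) and 0.51 for Ndufa3 (adjusted p = 0.00101), from edgeR's quasi-likelihood test. All were higher in all 3 libraries of PKO-1 than in all 3 of PKO-6. For Ndufb10 and Ndufa5 the clones lay on opposite sides of TM6 without overlap. Against TM6 neither gene was called in PKO-1, and only Ndufb10 was called in PKO-6.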

How the results depend on the processing

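The 25 calls of members gave 544 values under the alternatives, of which 486 stayed called, 57 were lost and 1 reversed. The reversed value was Ndufa1 in PKO against TM6, which stood at 0.10 (adjusted p = 0.556) with chromosome medians removed. Of the 25 calls, 0 held under every alternative. The alternatives include leaving out each library, also those of lines outside the comparison. With chromosome medians removed, 2 members were called in rho0, 1 in PKO and 0 in PKO-1 against TM6. On the adjusted p alone, 12 were called in PKO-1, 12 in PKO-6, 13 between the clones and 1 in PKO against rho0. At a fold threshold of 1 on the log2 scale, 2 were called in rho0, 1 in PKO, 0 in PKO-1, 1 in PKO-6 and 0 between the clones. With a length trend removed, 5 were called in PKO-1. With the 4 lines fitted separately, 1 was called in PKO against rho0, and with only the compared groups, 8 in rho0. Leaving out 1 library at a time gave 4 to 6 called members in rho0, 2 to 4 in PKO, 0 to 1 in PKO against rho0, 3 to 5 in PKO-1, 7 to 10 in PKO-6 and 3 to 7 between the clones. The members' medians then ranged from -0.28 to -0.14 in rho0, -0.02 to 0.05 in PKO, 0.06 to 0.22 in PKO against rho0, 0.00043 to 0.10 in PKO-1, -0.21 to -0.04 in PKO-6 and 0.12 to 0.28 between the clones. Without Rn45s the summed levels were 5573, 4742, 5524 and 4869 TPM in TM6, rho0, PKO-1 and PKO-6. Beyond these constructions, the cause of each change was not tested. The replicate numbers were not used as pairs in the main fits. Deviations of same-numbered libraries correlated at -0.39 to 0.25, with 10 of 18 pairs above 0.1. Differently numbered libraries were not correlated, so these values cannot tell whether the numbers pair the samples. With a replicate block, 6 members were called in rho0, 4 in PKO, 0 in PKO against rho0, 4 in PKO-1, 7 in PKO-6 and 6 between the clones. DESeq2 called 7, 4, 0, 3, 7 and 5 in the same order.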

Other observations

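Ndufv3 is expressed in a short and a long form, the long form holding an additional exon. The long form of 4 exons and 1579 bases held 12.0% ± 0.231 (SD, n = 3) of the gene's TPM in TM6, 15.7% ± 1.02 in rho0, 15.4% ± 0.729 in the PKO-1 line and 16.1% ± 1.35 in PKO-6. Every library of the other lines lay above every TM6 library. For Ndufs8, 1 minor transcript held 8.06% in TM6, 12.5% in rho0, 8.53% in the PKO-1 line and 11.04% in PKO-6. The main transcript of Ndufs1 held 58.4%, 53.6%, 60.1% and 47.4% in the same lines. These shares are estimates and were not tested.

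Ndufa4l2, a paralog of Ndufa4 known as a target of hypoxia signalling, is outside the naming rule. Its normalised counts were low, from 6.69 to 19.9 in TM6, 36.9 to 47.7 in rho0, 9.31 to 16.7 in PKO-1 and 18.7 to 45.0 in PKO-6, and PKO-6 overlapped with TM6. It stood at 1.73 ± 0.60 in rho0 against TM6 (adjusted p = 0.032, not called). It rose in PKO-6 against TM6 by 1.41 ± 0.39 on the log2 scale (adjusted p = 0.00524) and PKO-1 stood at -1.48 relative to PKO-6 (adjusted p = 0.00597), from edgeR's quasi-likelihood test. It was named after its value was seen.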
